A study of Mus musculus with 21 samples.

Results

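Genes for neuropeptides and for the granins that share their secretory granules were followed in the embryonic cerebral cortex of 3 mouse lines that carry different mutations of Pax6. The set comprised the 8 genes Adcyap1, Gcg, Sst, Npy, Tac1, Chga, Chgb and Scg2, and every probe set that the array's annotation assigned to 1 of them was taken. This gave 10 probe sets among 45037 without controls, with a pair each for Adcyap1 and Tac1 and a single one for each other gene. RNA came from rostral cerebral cortex at embryonic day E14, with 1 Affymetrix array per sample and 21 arrays in all. The Sey (Small-eye) line, on a C57BL/6J x DBA/2J (B6D2F1) background, gave 4 arrays of Pax6 Sey mutants and 3 of their wild type littermates. The Leca4 line gave 3 mutant and 4 control arrays, and the Leca2 line gave 4 mutant and 3 control arrays, both on 129 S6. All animals were untreated, the sex is not given in the labels, and the labels state neither the zygosity of the mutants nor whether tissue was pooled. The labels call the arrays of a group biological replicates without saying whether they came from separate litters, and a p-value here covers no more than the spread among these samples.

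Neuropeptides are made as larger precursors, which enter dense-core vesicles and are cut there by prohormone convertases, trimmed by carboxypeptidase E and often amidated by Pam. Granins are acidic proteins that aggregate with the peptides as these vesicles form, and they are themselves cut into peptides. In the developing cortex Sst and Npy are best known from GABAergic interneurons, which are born in the ventral telencephalon and migrate in. Pax6 is a transcription factor of dorsal progenitors, and outside the brain it is known for its role in pancreatic endocrine cells, where glucagon is made from Gcg.

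The stretches printed here were read from RefSeq promoters of mouse assembly GRCm38.p6, which run from 250 bases before to 50 bases after each start site. All 8 genes had a match there, with 9 windows. They are shown because several peptide and granin genes are textbook targets of CREB, the factor that binds the cAMP response element TGACGTCA. Letters were searched on both strands, and the full element reads the same on both. It was found in 3 of the 8 genes, Sst, Chgb and Scg2, and in 1.79% of all 32851 windows. In the lines for those genes its letters are in capitals.
Sst, chr16:23890869-23890908, minus strand: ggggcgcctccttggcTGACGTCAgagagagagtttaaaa
Chgb, chr2:132781554-132781593, plus strand: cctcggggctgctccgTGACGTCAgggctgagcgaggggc
Scg2, chr1:79440071-79440110, minus strand: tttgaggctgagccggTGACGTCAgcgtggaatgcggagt

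The shorter core of that element, TGACG or its reverse complement CGTCA, was found in 6 of the 8 genes and in 20.8% of all windows, and every full element contains it. Adcyap1, Chga and Tac1 had the core without the full element, and the core is in capitals in their lines.
Adcyap1, chr17:93198910-93198949, plus strand: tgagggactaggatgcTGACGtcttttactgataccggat
Chga, chr12:102554881-102554920, plus strand: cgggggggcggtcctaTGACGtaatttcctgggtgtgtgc
Tac1, chr6:7555008-7555039, plus strand: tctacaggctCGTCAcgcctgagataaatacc

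Npy and Gcg had neither form in the windows searched. Gcg is shown with its last 120 bases before the start site, because it fell furthest of the set. A search for the homeodomain core TAAT and for the TATA motif TATAAA was chosen after the expression values had been seen, and both motifs are in capitals in either orientation.
Gcg, chr2:62483654-62483773, minus strand: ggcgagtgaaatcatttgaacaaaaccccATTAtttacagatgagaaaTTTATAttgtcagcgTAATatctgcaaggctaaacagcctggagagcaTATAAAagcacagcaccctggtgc
TAAT was found in 5 of the 8 genes against 58% of all windows, and TATAAA in 3 of 8 against 13.6%. A gene was counted if any of its windows matched, and Adcyap1 has the additional window. The TATAAA of Adcyap1 is in the window that is not printed, and that of Chga lies inside the transcript. TAAT followed by ATTA was also searched, 3 or 2 bases apart. It was found in 0 of the 8 genes, against 0.487% and 0.39% of all windows. A match describes letters only, and these searches say nothing about binding.

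The deposited values are log2 expression values, so a difference of 1 is a factor of 2. Array medians ran from 6.03 to 6.06 in Sey, from 6.25 to 6.26 in Leca4 and from 6.11 to 6.18 in Leca2, so the lines appear to have been normalized separately and levels are not tested between lines. As a background level the 40th percentile of each array was used, which lay between 5.37 and 5.60. Pax6 transcript itself was higher in the mutants of each line, by 0.56 ± 0.09 (SE) in Sey, 0.49 ± 0.09 in Leca4 and 0.93 ± 0.09 in Leca2, with limma adjusted p-values of 0.000476, 0.00659 and 2.94e-05, of which that of Leca4 became 0.085 with only the Leca4 arrays in the fit. This checks that the mutant arrays differ from the controls at the mutated gene, but a transcript level does not identify the allele. Of 12 pan-neuronal and 10 radial glia genes, all were above background on some array of every group, and of 11 genes of cortical projection neurons and subplate 10 were. Sex read from the arrays was uneven, with 1 male and 3 females among the Sey mutants against 3 male controls, and with 2 males and 2 females among the Leca2 mutants against 3 female controls. The part of sex in the results was not tested beyond a fit with a term for sex, which was run for the neuropeptide and granin genes and most other named genes and is given where it ended a call.

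Among the 10 probe sets, called here at a limma adjusted p under 0.05 over all 45037 probe sets, 2 fell and 0 rose in Sey, those of Gcg and Chga, where 8.56% of all probe sets were called, 4.56% upward and 4% downward. In Leca4 both Adcyap1 probe sets rose and Gcg fell, where 2.21% of all probe sets were called, 1.29% upward and 0.921% downward. In Leca2, limma called 0 of 10, with 2 at an unadjusted p under 0.05 and 0.218% of all probe sets called (0.0755% upward, 0.142% downward). The median change over the 10 probe sets was -0.11 in Sey against -0.01 over all probe sets, 0.00 in Leca4 against 0.00 and 0.01 in Leca2. No filter on low values was applied, and 9 of the 10 were above background on at least 3 arrays, the exception being a Tac1 probe set. With 3 or 4 arrays per group, the number of arrays limits the precision of each value.

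**Figure D1:**
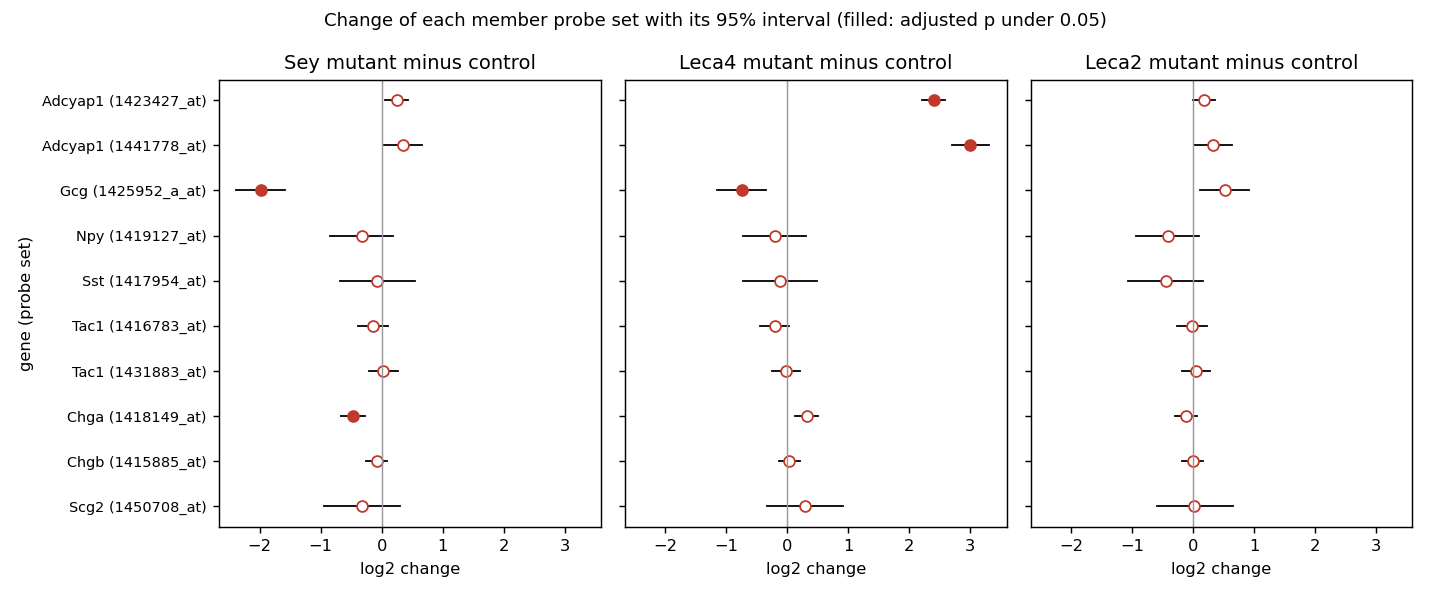
Log2 change of each of the 10 probe sets (rows) in the mutants minus the littermate controls of the Sey, Leca4 and Leca2 lines (panels); points are the fitted changes, lines the 95% intervals, and filled points have a limma adjusted p under 0.05. The filled points are Gcg at -1.98 and Chga at -0.47 in Sey, and Adcyap1 at 2.40 and 3.00 and Gcg at -0.75 in Leca4.

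Adcyap1 encodes the precursor of PACAP, a peptide that raises cAMP in target cells through its receptor PAC1 and is known to act on neural progenitors. At the probe set 1423427_at the 3 Leca4 mutant arrays read 9.89, 9.92 and 10.14, and the 4 Leca4 control arrays 7.47, 7.60, 7.61 and 7.66. The groups lay far apart, with every mutant array above every control, and 11.1% of all probe sets had groups without overlap in Leca4. The rise was 2.40 ± 0.09 (SE) on the log2 scale, a factor of 5.27, with a limma adjusted p of 2.02e-12. In Sey the mutant arrays read 7.02, 7.09, 6.85 and 7.12 and the controls 6.67, 6.84 and 6.81, so that the lowest mutant was just above the highest control, and 19.4% of all probe sets had groups without overlap in this comparison. That difference was 0.25 (95% interval 0.06 to 0.43) and did not pass the test, at an adjusted p of 0.105. Without Sey mutant replicate 3, the lowest of the mutant arrays, it was 0.30 and passed, at an adjusted p of 0.0462. In Leca2 the mutants read 8.02, 7.95, 7.72 and 7.79 and overlapped the controls at 7.83, 7.61 and 7.65. The Leca2 difference was 0.18 (95% interval -0.01 to 0.36), at an adjusted p of 0.817.

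The second Adcyap1 probe set, 1441778_at, gave the same order of groups within each line. The Leca4 mutants read 8.43, 8.58 and 9.26 and the Leca4 controls 5.61, 5.93, 5.69 and 5.77, close to the background level. The rise was 3.00 ± 0.15, a factor of 8.03, with a limma adjusted p of 1.37e-10. The Sey mutants, at 6.02, 6.02, 6.08 and 6.16, all lay above their controls, at 5.67, 5.80 and 5.70, as groups did not overlap in 19.4% of all probe sets. That difference was 0.35 with an adjusted p of 0.183, and it passed, at 0.0124, when only the Sey arrays were fitted. The Leca2 mutants ranged from 5.91 to 6.42 and overlapped controls between 5.82 and 5.97, with a difference of 0.32 and an adjusted p of 0.772.

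The Leca4 change of Adcyap1 differed from the changes in the other lines when the difference itself was tested. It exceeded the Leca2 change by 2.22 ± 0.13 at 1423427_at and by 2.68 ± 0.21 at 1441778_at, with limma adjusted p-values of 4.63e-09 and 3.85e-07, where 0.806% of all probe sets were called. The Sey change minus the Leca4 change was -2.15 ± 0.13 and -2.65 ± 0.21, with adjusted p-values of 3.11e-09 and 1.73e-07, where 4.92% of all probe sets were called. Sey is on another strain background than Leca4 and Leca2. In every difference with Sey, here and below, mutation and background therefore cannot be told apart. Between Sey and Leca2 the difference at 1423427_at was 0.07 with a 95% interval from -0.19 to 0.34. The mean levels at this probe set ran from 6.77 ± 0.09 (SD) in Sey controls through 7.02 ± 0.12 in Sey mutants, 7.58 ± 0.08 in Leca4 controls, 7.70 ± 0.12 in Leca2 controls and 7.87 ± 0.14 in Leca2 mutants to 9.98 ± 0.14 in Leca4 mutants. The arrays of the Leca4 controls, Leca2 controls and Leca2 mutants overlapped from each neighbour to the next in that order, and the order across lines rests on values that appear normalized per line.

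Gcg encodes preproglucagon, the precursor of glucagon and of the glucagon-like peptides. It fell furthest in Sey. The 4 Sey mutant arrays read 5.53, 5.55, 5.92 and 5.25 against 7.26, 7.96 and 7.39 in the 3 controls. The lowest mutant was below the background level of its array and the other 3 were above theirs, and all 3 controls were at least at 7.26. The fall was -1.98 ± 0.19 (SE), a factor of 3.94 with a limma adjusted p of 8.34e-07. In Leca4 the mutants read 6.04, 6.55 and 6.06 and the controls 6.51, 7.05, 7.29 and 7.03. Here the groups overlapped, because the highest mutant was above the lowest control. The Leca4 change was -0.75 ± 0.19, a factor of 1.68, with an adjusted p of 0.0444.

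The Leca4 call for Gcg was close to the threshold. It was lost without Leca4 mutant replicate 1 or 3 (-0.66 and -0.67, adjusted p 0.172 and 0.121) and without Leca4 control replicate 2, 3 or 4 (-0.72, -0.64 and -0.73, adjusted p 0.0924, 0.136 and 0.103). It was also lost with only the Leca4 arrays in the fit (adjusted p 0.173), with array weights (0.0677), after quantile normalization of all arrays (0.0543) and with a term for sex (0.0544). In Leca2 the Gcg values moved the other way. The Leca2 mutants read 7.63, 7.39, 7.48 and 7.17 and lay above all controls, at 6.73, 7.01 and 6.95. That difference, 0.52 (95% interval 0.12 to 0.92), did not pass the test over all probe sets, at an adjusted p of 0.568, and 6.49% of all probe sets had groups without overlap in this comparison.

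The Gcg changes differed between all pairs of lines. The Sey change minus the Leca2 change was -2.50 ± 0.27 with a limma adjusted p of 1.74e-05, where 2.3% of all probe sets were called. Sey minus Leca4 was -1.23 ± 0.27 with an adjusted p of 0.0104, and Leca4 minus Leca2 was -1.27 ± 0.27 with an adjusted p of 0.0266. The last of these was lost without Leca2 mutant replicate 2 or 3 (adjusted p 0.0525 and 0.0562), Leca2 control replicate 1 or 2 (0.0952 and 0.0511), Leca4 mutant replicate 1 or 3 (0.0766 and 0.0523) or Leca4 control replicate 3 or 4 (0.0621 and 0.0529), and with a term for sex (0.0554). The mean level of Gcg was lowest in Sey mutants at 5.56 ± 0.27 (SD), then 6.22 ± 0.29 in Leca4 mutants, 6.89 ± 0.15 in Leca2 controls, 6.97 ± 0.33 in Leca4 controls, 7.42 ± 0.19 in Leca2 mutants and 7.54 ± 0.37 in Sey controls. From the Leca2 controls upward, the arrays of each group overlapped those of its neighbour in this order, while the Sey mutants and the Leca4 mutants did not overlap their neighbours. These neighbours are groups of other lines, so the order rests on values that appear normalized per line. Within Leca4 the groups did overlap, with the highest mutant at 6.55 and the lowest control at 6.505. Gcg lies on chromosome 2, as Pax6 does, with 469 protein-coding genes between them in the RefSeq order.

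Glucagon is best known as an endocrine product, so 9 measured marker genes of endocrine and neuroendocrine cells outside the cortex were set beside Gcg. On every array of every group 5 of the 9 were at or below background, and the list's mean level ran from 5.05 to 5.46 over all arrays. Limma called 0 of 9 in each line, with 1 at an unadjusted p under 0.05 in Sey and 0 in the others. Over all genes 12% were called in Sey, 2.93% in Leca4 and 0.28% in Leca2.

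**Figure D2:**
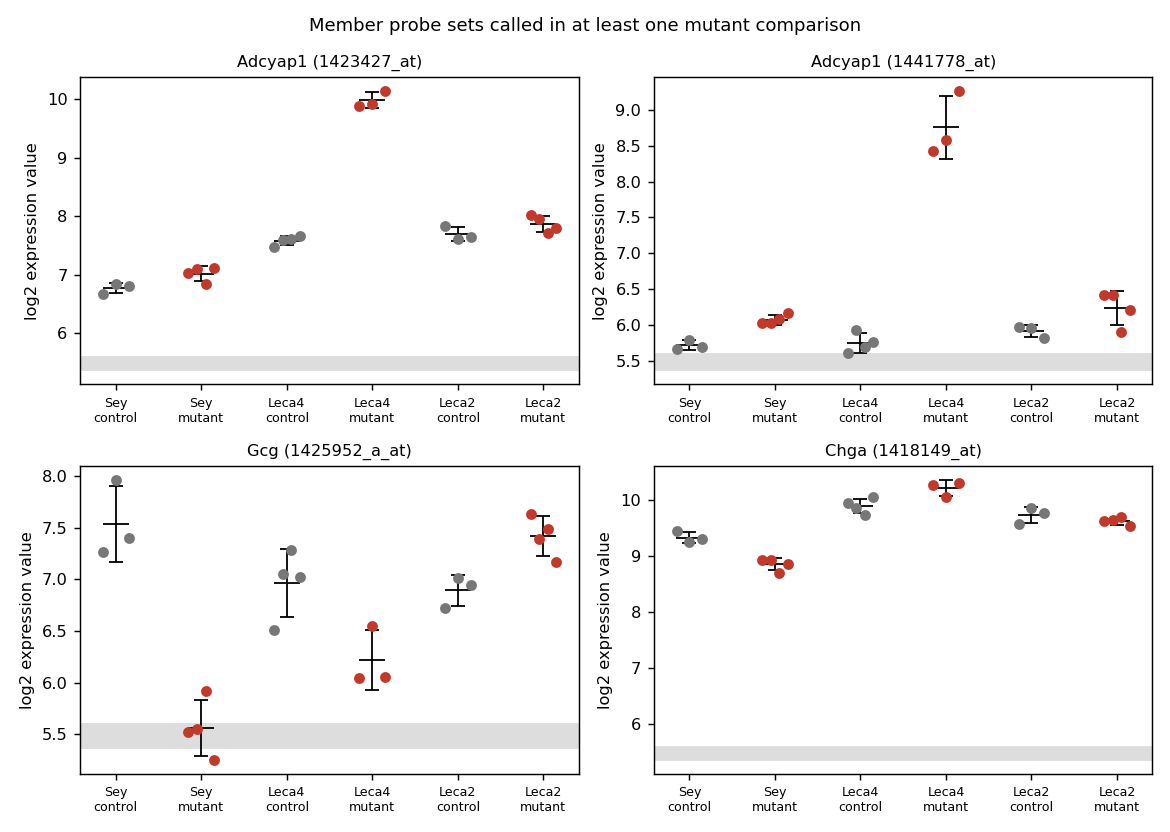
Log2 expression values (y axis) of Adcyap1 at both probe sets, Gcg and Chga by group (x axis); each point is 1 array, horizontal bars are group means with SD, and the grey band spans the 40th percentiles of the arrays, 5.37 to 5.60. Adcyap1 stands apart in Leca4 mutants, and Gcg in Sey mutants reaches the band.

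Sst encodes somatostatin, an inhibitory peptide, and its probe set 1417954_at was well above background on all 21 arrays. The Sey mutants read 8.91, 8.32, 10.01 and 9.25 and the Sey controls 8.80, 9.50 and 9.26. Mutant replicate 3 was the highest and mutant replicate 2 the lowest array of the line, so the mutants span the controls. In Leca4 the mutants, at 10.34, 10.78 and 10.23, lay within the range of controls at 10.34, 10.15, 10.92 and 10.86. In Leca2 the mutants read 8.95, 8.98, 9.46 and 8.73, and the highest of them overlapped controls at 9.26, 9.55 and 9.64. The changes were -0.07 (95% interval -0.68 to 0.54) in Sey, -0.12 (-0.73 to 0.49) in Leca4 and -0.45 (-1.06 to 0.16) in Leca2. None passed limma's test, with adjusted p-values of 0.944, 0.923 and 0.905.

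Npy, neuropeptide Y, behaved much like Sst from array to array. At 1419127_at the Sey mutants read 7.83, 7.56, 8.75 and 7.93 and overlapped the controls at 8.20, 8.53 and 8.31. The Leca4 mutants at 8.94, 9.42 and 8.86 overlapped controls at 9.19, 8.94, 9.54 and 9.47. The Leca2 mutants at 7.63, 7.999, 8.52 and 7.61 overlapped controls at 8.13, 8.51 and 8.43. Again the third Sey mutant and the third Leca2 mutant were the high arrays of their groups. The changes were -0.33 (95% interval -0.84 to 0.18), -0.21 (-0.72 to 0.30) and -0.42 (-0.93 to 0.09), with limma adjusted p-values of 0.538, 0.797 and 0.881. The spread of Sst and Npy around their group means was at the 99.1 and 98 percentiles of all probe sets, which is why their intervals are wide.

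Tac1, the precursor of substance P and neurokinin A, was near background. Its probe set 1416783_at was above the level on 6 of 21 arrays, which were 2 of 3 Leca4 mutants and all 4 Leca4 controls. The Leca4 mutants read 5.55, 5.71 and 5.72 and the controls 5.71, 5.70, 5.98 and 6.10, with a change of -0.21 and an adjusted p of 0.45. The second Tac1 probe set, 1431883_at, was at or below background on all 21 arrays, between 3.39 and 3.96. Tac1 was thus measured as not above background in Sey and Leca2, and no fold is given there.

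Among the granins, Chga, which encodes chromogranin A, fell in Sey. The Sey mutant arrays at 1418149_at read 8.94, 8.94, 8.71 and 8.87 against 9.45, 9.25 and 9.30 in the controls, with no overlap, as in 19.4% of all probe sets in Sey. The change was -0.47 ± 0.09 (SE), a factor of 1.38, with a limma adjusted p of 0.00147. In Leca4 the order was the opposite, with mutants at 10.27, 10.05 and 10.31 just above controls at 9.94, 9.86, 9.73 and 10.05, as groups did not overlap in 11.1% of all probe sets. This difference was 0.32 (95% interval 0.13 to 0.50) and did not pass, at an adjusted p of 0.0744. It passed without Leca4 mutant replicate 2, the lowest mutant array, with a change of 0.40 and an adjusted p of 0.0363, and with probe sets under the 60th percentile filtered out (0.0407). The Leca2 mutants read 9.63, 9.65, 9.69 and 9.53 and overlapped the controls at 9.58, 9.86 and 9.77, with a difference of -0.11 (95% interval -0.30 to 0.07).

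The Chga change in Sey minus that in Leca4 was -0.79 ± 0.13 with a limma adjusted p of 7e-04. Leca4 minus Leca2 was 0.43 and Sey minus Leca2 was -0.36, with adjusted p-values of 0.136 and 0.191. The mean level was lowest in Sey mutants at 8.86 ± 0.11 (SD) and highest in Leca4 mutants at 10.21 ± 0.14. Between them came the Sey controls at 9.33 ± 0.10, the Leca2 mutants at 9.63 ± 0.07, the Leca2 controls at 9.74 ± 0.14 and the Leca4 controls at 9.90 ± 0.13. The Leca2 mutants, Leca2 controls and Leca4 controls overlapped with their neighbours in that order, and the order across lines rests on values that appear normalized per line.

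Chgb, which encodes chromogranin B, was the steadiest of the granins. At 1415885_at the Sey mutants read 9.52, 9.38, 9.32 and 9.38 and the controls 9.50, 9.56 and 9.40. The Leca4 mutants, at 9.56, 9.86 and 9.56, overlapped controls between 9.57 and 9.70, and the Leca2 mutants, between 9.05 and 9.35, overlapped controls between 9.16 and 9.31. The changes were -0.08 (95% interval -0.26 to 0.09), 0.03 (-0.14 to 0.21) and -0.01 (-0.19 to 0.16), so a change as large as that of Chga in Sey lies outside each interval. Chgb also lies on chromosome 2, with 318 protein-coding genes between it and Pax6.

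Scg2, which encodes secretogranin II, the precursor of secretoneurin, varied most among arrays of 1 group. Its spread around the group means was at the 99.2 percentile of all probe sets. The Leca4 controls at 1450708_at read 6.34, 7.63, 7.48 and 8.24, a range that held all 3 Leca4 mutants at 7.78, 7.78 and 7.59. The Sey mutants, between 6.23 and 6.96, overlapped controls between 6.59 and 7.42, and the Leca2 mutants, between 7.52 and 8.04, overlapped controls between 7.55 and 7.75. The changes were -0.32 (95% interval -0.95 to 0.30), 0.29 (-0.33 to 0.91) and 0.02 (-0.60 to 0.65).

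**Figure D3:**
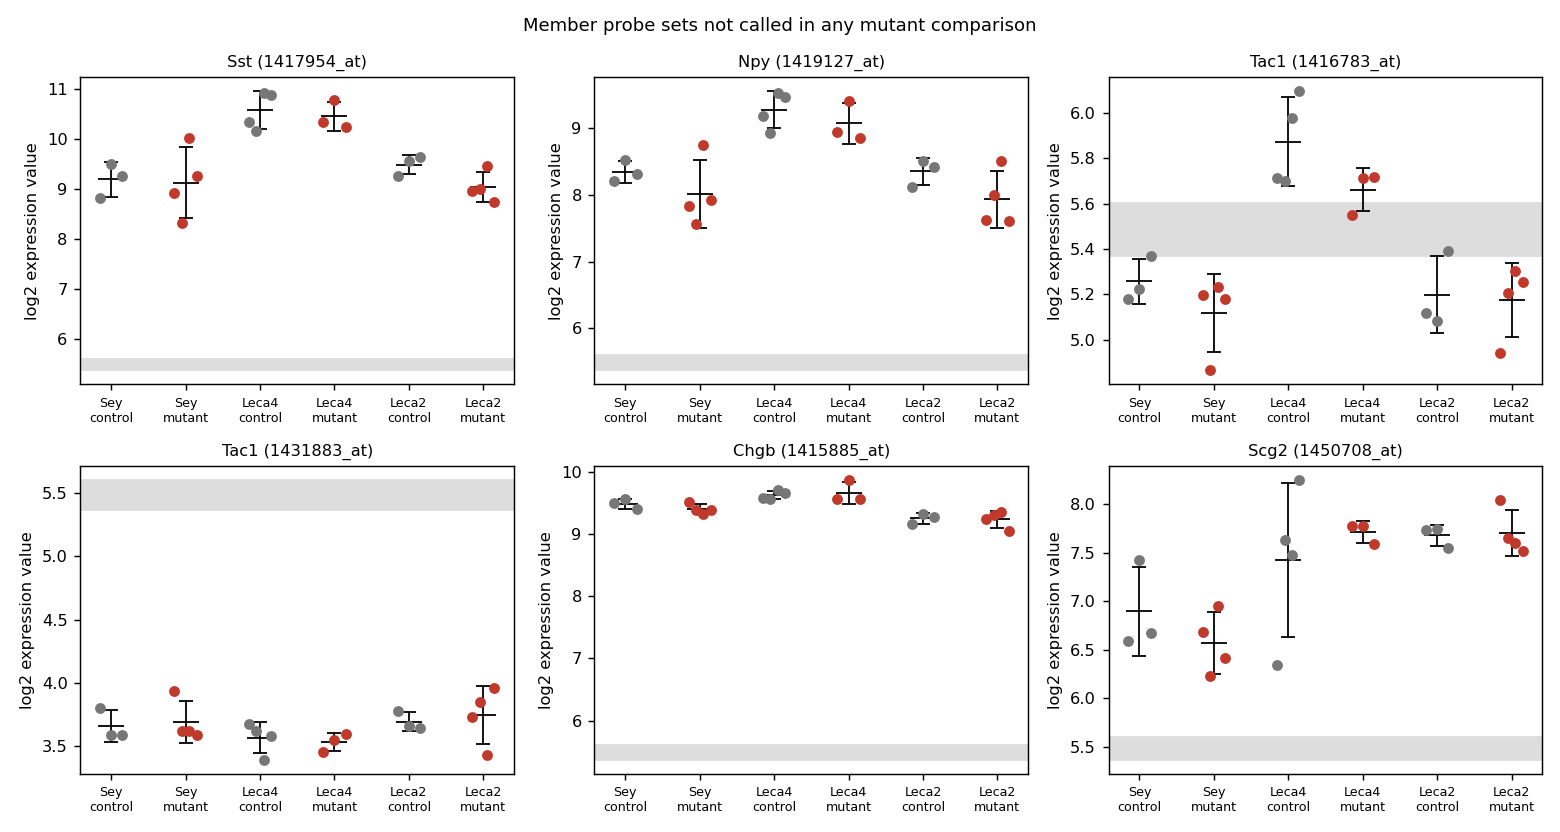
Log2 expression values (y axis) of Sst, Npy, Tac1 at both probe sets, Chgb and Scg2 by group (x axis); points are arrays, bars are group means with SD, and the grey band spans the 40th percentiles of the arrays, 5.37 to 5.60. Mutant and control arrays of Sst, Npy, Chgb and Scg2 overlap in each line, and Tac1 lies in or below the band outside Leca4.

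The arrays high in Sst were high in Npy too. Each value was taken as its deviation from its group's mean, so that differences between groups play no part, and p-values came from permutation within groups. Over 21 arrays Pearson's r between Sst and Npy was 0.922 and Spearman's rho 0.922, both with a permutation p of 1e-05, the smallest that 100000 permutations can give, and 0.00028 after adjustment over the 28 pairs of members. It was 0.889 without the 2 arrays farthest from the median of Npy, and within the lines it was 0.953 in Sey, 0.974 in Leca4 and 0.928 in Leca2. Of the other pairs 0 passed, and the next, Gcg with Scg2, had an r of 0.689, a rho of 0.699 and permutation p-values of 0.0105 and 0.00549, or 0.101 and 0.0769 adjusted.

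The same deviations were set beside 14 lists of cell type markers, of which the GABAergic and the intermediate progenitor lists passed for both peptides by Pearson's r and by Spearman's rho. The GABAergic list held 11 measured genes of the ventral telencephalon and of GABAergic neurons, among them Dlx1, Dlx2, Lhx6, Gad1 and Gad2, and neither Sst nor Npy. Npy correlated with its mean at r = 0.858 and rho = 0.896, and Sst at r = 0.741 and rho = 0.819, over 21 arrays, with permutation p-values adjusted over 28 relations of 0.00028 for both r. Within the lines r was 0.893, 0.928 and 0.928 for Npy and 0.949, 0.928 and 0.85 for Sst. The intermediate progenitor list held 8 genes and moved the opposite way. Npy correlated with it at r = -0.945 and rho = -0.93, and Sst at r = -0.808 and rho = -0.79, with adjusted permutation p-values of 0.00056 and 0.00189 for r. Without the 2 arrays farthest from the median of the list's mean, the 4 values of r were 0.836, 0.745, -0.897 and -0.702, in the same order. Other lists passed in part. The radial glia list had r = -0.733 and rho = -0.765 with Npy (adjusted permutation p 0.00874 and 0.0104), and r = -0.583 and rho = -0.622 with Sst (0.0507 and 0.0426). The striatal projection neuron list had r = 0.583 and rho = 0.742 with Npy (adjusted permutation p 0.0507 and 0.0135), and r = 0.489 and rho = 0.681 with Sst (0.0507 and 0.0213). The pan-neuronal list had r = 0.653 and rho = 0.656 with Npy (adjusted permutation p 0.011 and 0.0213), but within Sey that r was -0.066. In bulk tissue a change in the number of cells of a type and a change in RNA per cell cannot be told apart.

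**Figure D4:**
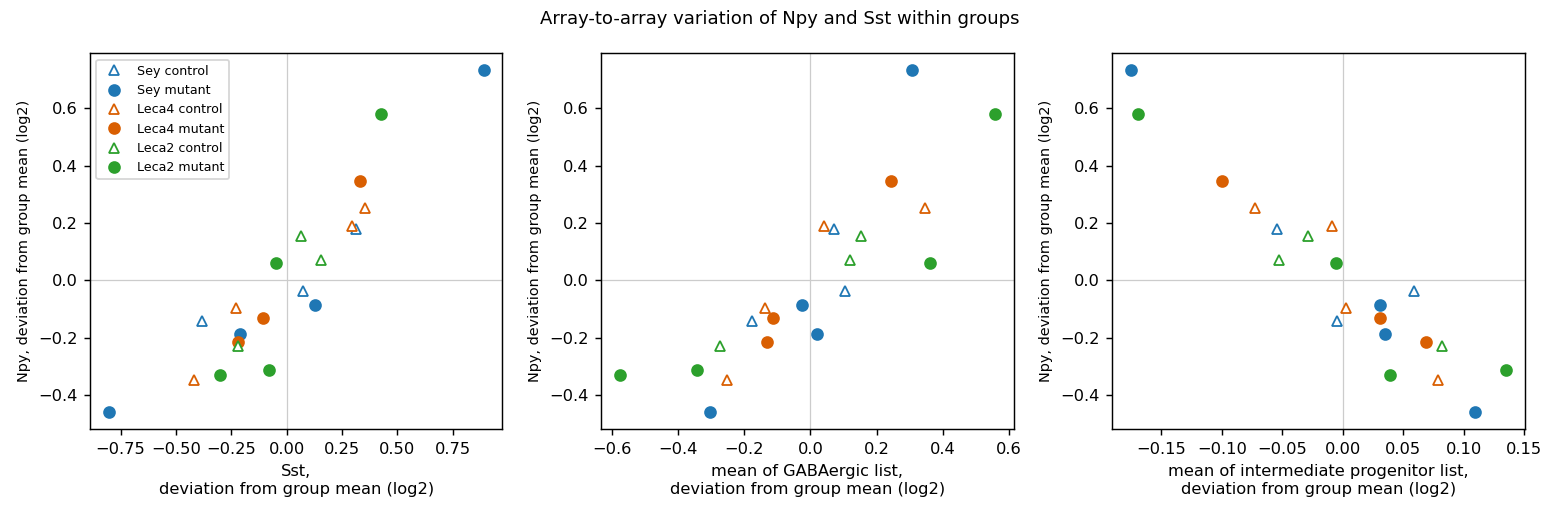
Deviation of Npy from its group mean on each of the 21 arrays (y axis, log2) against the deviation of Sst, of the mean of 11 GABAergic marker genes and of the mean of 8 intermediate progenitor genes (x axes, log2); colours mark lines, filled circles mutants and open triangles controls. Npy rises with Sst (r = 0.922) and with the GABAergic list (r = 0.858) and falls with the intermediate progenitor list (r = -0.945).

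The marker lists were also set beside the changes between groups. Over all genes, each by its probe set with the highest mean, 12% were called in Sey, 2.93% in Leca4 and 0.28% in Leca2. In Sey mutants 8 of the 11 GABAergic genes rose and 1 fell, with a median change of 2.02, and the list's mean level was 9.02 to 9.63 on mutant arrays against 7.17 to 7.45 on controls. Over the same arrays Sst changed by -0.07 and Npy by -0.33, neither passing the test. In Leca4 and Leca2 limma called 0 of the 11 genes, with 2 at an unadjusted p under 0.05 in each. The pan-neuronal list, relevant to all granins, had 5 of 12 genes lower in Sey, with a median of -0.25 and mean levels of 11.39 to 11.48 against 11.68 to 11.76, and 0 of 12 called in Leca4 and Leca2, with 1 and 0 at an unadjusted p under 0.05. Of those 5, the calls of Elavl4 and Gap43 were lost without single Sey arrays (adjusted p up to 0.124 and 0.0897) and with a term for sex (0.0677 and 0.159), and that of Elavl4 also with only the Sey arrays in the fit (0.102). The intermediate progenitor list had 6 of 8 genes lower and 1 higher in Sey, with a median of -1.30 and mean levels of 8.97 to 9.25 against 10.28 to 10.39. In Leca2 2 of the 8, Neurog1 and Neurod4, were lower. The list's mean level there was 10.29 to 10.59 against 10.79 to 10.92, but its median change was -0.01. In Leca4 1 of the 8 was higher and 0 lower, with a median of 0.06.

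Further lists moved in Sey beside the falls of Gcg and Chga, where 12% of all genes were called. Of 11 genes of cortical projection neurons and subplate, 7 fell, with a median of -0.35 and mean levels of 9.34 to 9.50 in mutants against 9.83 to 9.88 in controls. Of 8 Cajal-Retzius genes 5 rose, with a median of 0.64 and mean levels of 8.41 to 8.76 against 7.81 to 7.97. Of 10 diencephalic genes 4 rose and 1 fell, with a median of 0.22 and mean levels of 7.06 to 7.15 against 6.45 to 6.67. Of 10 radial glia genes, Pax6 among them, 3 rose and 2 fell, with a median of 0.03. Of 9 striatal projection neuron genes 1 rose and 2 fell, with a median of -0.10. Of 8 genes of meninges and mesenchyme 1 rose, Crabp2 by 1.78, with a list median of 0.01. In Leca4, where Adcyap1 rose and 2.93% of all genes were called, the microglia list had 2 of 7 genes higher. Its median change was 0.37, with 5 of the 7 at an unadjusted limma p under 0.05. C1qa rose by 0.52 ± 0.11 and Csf1r by 0.42 ± 0.10, and the list's mean level was 7.71 to 7.89 against 7.43 to 7.59. C1qa lost its call without Leca4 mutant replicate 1 (0.47, adjusted p 0.0658) and with only the Leca4 arrays in the fit (0.0522). Csf1r lost it with only the Leca4 arrays (0.0929), with array weights (0.0768) and without Leca4 mutant replicate 1 or 2 or control replicate 1, 2 or 3 (adjusted p 0.0998, 0.163, 0.0818, 0.105 and 0.0669). Also in Leca4, Ccn2, a gene of subplate neurons, rose by 2.43 ± 0.12 as the 1 called gene of 11 in the projection neuron and subplate list. That list's mean level was 10.22 to 10.24 in mutants against 10.04 to 10.12 in controls, but its median change was 0.01. Crabp2 rose in Leca4 by 1.17 (limma adjusted p 0.0118), with a median of -0.23 for the list of meninges and mesenchyme. That call was lost without Leca4 mutant replicate 3 (0.059) and with only the Leca4 arrays in the fit (0.0796). The radial glia list had 1 gene higher and 1 lower in Leca4 and in Leca2, and the striatal list had 1 higher and 1 lower in Leca4. The part of these cell types in the changes of Adcyap1, Gcg and Chga was not tested.

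For each of the 3 genes that changed, the 3 genes with the most similar pattern were taken, by Pearson's r over 21 arrays of the difference from the control mean of the line. This is a description over arrays that share their groups, and it carries no p. Adcyap1 was followed by Npnt (r = 0.984), Cd44 (0.975) and Cryab (0.975), an extracellular matrix protein, a hyaluronan receptor and a small heat shock protein. Npnt changed by 2.09 in Leca4 and by 0.37 in Sey, a Sey call lost without single arrays and with a term for sex (adjusted p 0.112). All 4 Leca4 controls were at or below background for Cd44 and Cryab, which were at least 5.04-fold and at least 5.03-fold higher in the Leca4 mutants. Cd44 was at or below background on all Sey arrays, and Cryab on all Leca2 arrays. Gcg was followed by Bcl6 (0.948), Cdh10 (0.947) and Epha3 (0.945), a transcriptional repressor, a cadherin and an Eph receptor, with Sey changes of -1.41, -1.34 and -0.95 and Leca4 changes of -0.61, -0.45 and -0.26. In Leca4 Epha3 was not called (limma adjusted p 0.0524), though it passed with a filter at the 60th percentile (0.0213). Bcl6 lost its Leca4 call with only the Leca4 arrays in the fit (0.119). It also lost it without mutant replicate 1 or 3 or control replicate 1, 3 or 4 (0.06 to 0.127). Cdh10 lost its call with only the Leca4 arrays (0.111) and without mutant replicate 1 (0.0536). Chga was followed by Rab3d (0.942), Ctsb (0.941) and Fam210b (0.932), of which Rab3d encodes a vesicle GTPase and Ctsb the protease cathepsin B. Fam210b changed by -0.70 in Sey and by 0.72 in Leca4.

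The machinery that makes and packs neuropeptides was read from 19 measured genes of 20 listed, each by its probe set with the highest mean. In Sey 4 fell and 1 rose, with a median of -0.07 against -0.01 over all genes, of which 12% were called. Scg5, which encodes the convertase chaperone 7B2, fell by 0.76 on the log2 scale, from 11.31 ± 0.02 (SD) in 3 controls to 10.56 ± 0.10 in 4 mutants, with a limma adjusted p of 5.2e-07. Pam, the amidating enzyme, fell by 1.01 ± 0.25 (SE), with an adjusted p of 0.0144. Rab3a, a vesicle GTPase, and Cadps2, which primes dense-core vesicles for release, fell by 0.34 and 0.35, with adjusted p-values of 0.00216 and 0.0265. The Pam call was lost without Sey control replicate 3 (-0.85, adjusted p 0.0926) with only the Sey arrays in the fit (0.106) and with a term for sex (0.0585). That of Cadps2 was lost without Sey mutant replicate 3 or 4 or control replicate 2 or 3 (adjusted p between 0.0799 and 0.135), with only the Sey arrays in the fit (0.0768) and with a term for sex (0.0942). Slc18a2, the vesicular monoamine transporter, was at least 5.78-fold higher, since all 3 controls were at or below background, with an adjusted p of 2.44e-06.

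In Leca4 the list had 1 gene higher, Qpct, and 0 lower, with a median of 0.09 against 0.01 and 2.93% of all genes called. Qpct encodes glutaminyl cyclase, which closes the amino end of some peptides to pyroglutamate. It read 7.11 ± 0.21 (SD) in 3 mutants and 5.86 ± 0.30 in 4 controls, a rise of 1.25 ± 0.14 (SE) with a limma adjusted p of 1.42e-05. Pam was -0.88 there and did not pass, at an adjusted p of 0.082. In Leca2 limma called 0 of 19, with 1 at an unadjusted p under 0.05 and 0.28% of all genes called.

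Receptors of these peptides were measured for 16 of 17 listed genes, and 3 of the 16 were at or below background on every array of the series. In Sey 3 fell and 0 rose, where 12% of all genes were called, with a median of -0.04 against -0.01 over all genes. Sstr2, a somatostatin receptor that intermediate progenitors also express, fell by 0.98 ± 0.07 (SE), from 10.05 ± 0.05 (SD) to 9.07 ± 0.08, with a limma adjusted p of 3.44e-08, and it is also 1 of the 8 genes of the intermediate progenitor list. Sstr3 was at least 1.32-fold lower, with every mutant array at or below background, at an adjusted p of 5.59e-06. Adcyap1r1, the PACAP receptor, fell by 0.34 ± 0.07 with an adjusted p of 0.00259. In Leca4, where the ligand gene Adcyap1 rose, Adcyap1r1 was the 1 receptor that fell, where 2.93% of all genes were called, from 9.77 ± 0.06 (SD) in 4 controls to 9.43 ± 0.04 in 3 mutants. That fall of 0.33 ± 0.07 had an adjusted p of 0.0121, which became 0.0741 with only the Leca4 arrays in the fit. In Leca2 limma called 0 of 16, with 2 at an unadjusted p under 0.05 and 0.28% of all genes called, and Adcyap1r1 changed by 0.06. Glp1r, a receptor for a peptide made from Gcg, was at or below background on all 21 arrays.

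Of 36 other neuropeptide genes 31 were measured, and 12 of these were at or below background on every array. In Sey 2 fell and 0 rose, a share below the 12% called over all genes, with a median of -0.10 against -0.01. Grp, gastrin-releasing peptide, was at least 1.28-fold lower in Sey, where all mutant arrays were at or below background, with a limma adjusted p of 0.00898 that rose to 0.0846 without Sey control replicate 2. The other, Oxt, changed by -0.26 with an adjusted p of 0.0377, and its call was lost when any 1 of the 7 Sey arrays except mutant replicate 4 was left out (adjusted p between 0.065 and 0.174), with only the Sey arrays in the fit (0.0981) and with a term for sex (0.0958). Limma called 0 of 31 in Leca4 and 0 of 31 in Leca2, with 4 and 1 at an unadjusted p under 0.05. Over all genes 2.93% were called in Leca4 and 0.28% in Leca2. Grp was -0.77 in Leca4, at an adjusted p of 0.0931, with no overlap between groups, as seen in 11.1% of all probe sets.

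Regulators known to act on peptide and granin genes were measured for 9 of 12 listed genes. In Sey 1 rose and 2 fell, where 12% of all genes were called, with a median of 0.04 against -0.01. Insm1, a zinc finger factor of neuroendocrine and progenitor cells, rose by 0.44 ± 0.08 (SE) with a limma adjusted p of 0.00134. Neurod1, a neuronal bHLH factor, and Pou3f2, a POU factor of upper layer neurons, fell by 0.62 and 0.77, with adjusted p-values of 0.00235 and 0.00255. Insm1 and Neurod1 are also in the intermediate progenitor list. In Leca4, where 2.93% of all genes were called, Pou3f2 fell by 0.63 with an adjusted p of 0.0384. That call was lost without Leca4 mutant replicate 1 or 3 (0.0968 and 0.155) or control replicate 1, 2 or 4 (0.117, 0.0697 and 0.0506), and with only the Leca4 arrays in the fit (0.211). In Leca2 limma called 0 of 9, with 1 at an unadjusted p under 0.05 and 0.28% of all genes called.

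**Figure D5:**
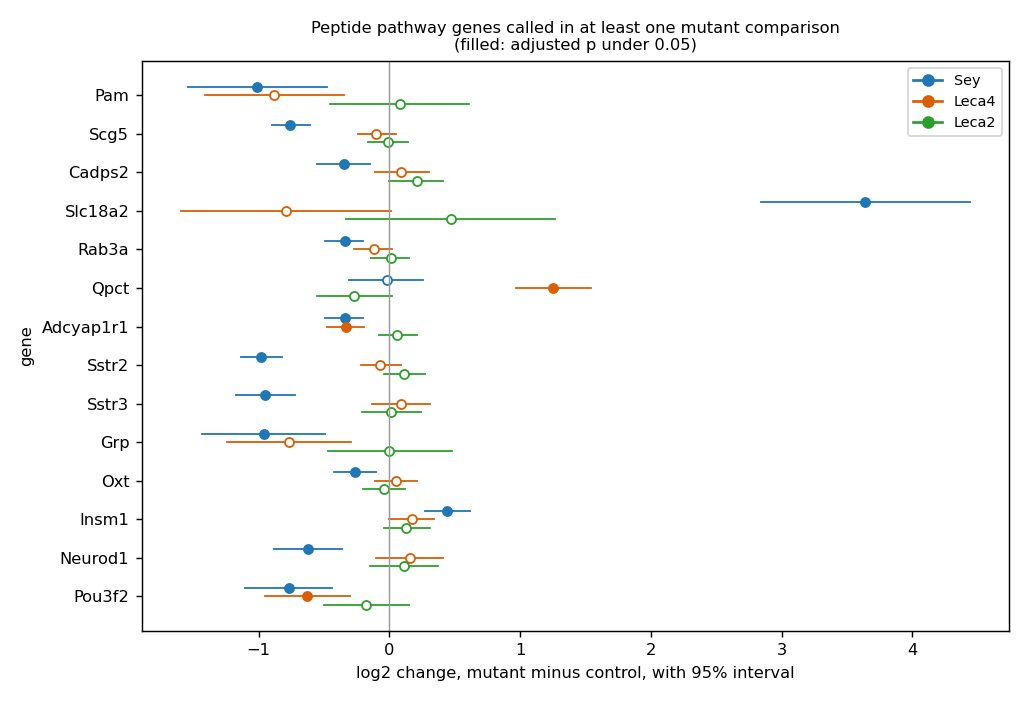
Fitted log2 change, mutant minus control, with its 95% interval (x axis) for the 14 peptide processing, receptor, neuropeptide and regulator genes called in at least 1 line (y axis); colours mark the lines and filled points have a limma adjusted p under 0.05. Most filled points are those of Sey. For Slc18a2, Sstr3 and Grp in Sey 1 group was at or below background. There the plotted change is the fitted value and only the bounds in the text apply. At least 1 group was also at or below background for Slc18a2 in Leca4 and Leca2 and for Qpct in Sey and Leca2. Those open points are fitted values to which no fold applies.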

How the data were processed

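Per the labels' protocols, RNeasy Micro was used for extraction and MessageAmp Premier for amplification before biotin labelling. Deposited values are log2 expression values per probe set, made by the authors with RMA per the submitters' processing notes, whose version is, like the genome build, not given in the sources used here. Of 45101 probe sets, 64 controls were left out, and 34945 of the others named 1 gene. One linear model of 6 groups over 21 arrays was fitted without a filter (R 4.3.3, limma 3.58.1, lmFit and eBayes, two-sided, Benjamini-Hochberg per contrast, threshold 0.05), and the code was tested on simulated data. Deviations of same-numbered mutants and controls correlated between -0.266 and 0.367, and in no line above 0.1 for every pair, so the numbers were not taken as pairs. A fold is given as at least the other group's mean over the arrays' 40th percentiles where a whole group was at or below these. All member probe sets are named, then up to 4 genes per list with the smallest p, the 3 most alike genes per changed member, and, chosen after their values were seen, the remaining called genes of the 4 peptide lists, the receptor Glp1r and single marker genes. The members and lists were chosen with earlier results of these data known. Other fits were no replicate pairing against a replicate block, stricter filters, array weights, quantile normalization, centring, a sex term, 1 probe set per gene, other thresholds and leaving out each array.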

Additional observations from a re-analysis of the deposited data

Results flagged for a closer look

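In 8 tests the change of a member differed between lines by limma's test of the difference. For Leca4 minus Leca2, 2 of the 10 probe sets were called upward and 1 downward, where 0.806% of all probe sets were called. For Sey minus Leca4 it was 4 of 10, all downward, against 4.92%. For Sey minus Leca2 it was 1 of 10, downward, against 2.3%. For Adcyap1 the Leca4 change minus the Leca2 change was 2.22 at 1423427_at and 2.68 at 1441778_at (adjusted p 4.63e-09 and 3.85e-07), and the Sey change minus the Leca4 change was -2.15 and -2.65 (adjusted p 3.11e-09 and 1.73e-07). For Gcg the differences were -1.27 for Leca4 minus Leca2, -1.23 for Sey minus Leca4 and -2.50 for Sey minus Leca2 (adjusted p 0.0266, 0.0104 and 1.74e-05). For Chga the difference was -0.79 for Sey minus Leca4 (adjusted p 7e-04). In the differences with Sey, the mutation and the strain background cannot be told apart.

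Single arrays stood apart from the others of their group in 2 of 30 groups of 4 examined, and chance gives about 1 in 20. Both were Sey mutants at Tac1, with 4.865 at 1416783_at against 5.178 for the nearest array, and 3.935 at 1431883_at against 3.619. All 4 values are below the background level.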

How the results depend on the processing

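The counts of called probe sets over the whole array moved with the settings. With only the arrays of the line compared, 309 were called in Leca4 and 28 in Leca2. With a replicate block, 2552, 614 and 46 were called in Sey, Leca4 and Leca2. Array weights gave 182 in Leca2, a sex term 2425 in Sey, 1 probe set per gene 2458, 625 and 57 in Sey, Leca4 and Leca2, an adjusted p under 0.10 gave 1579 in Leca4, and a change of at least 1.4-fold 1895 in Sey and 577 in Leca4. Leaving out each array gave 2724 to 3458 in Sey (lowest without control replicate 1), 667 to 1163 in Leca4 (lowest without mutant replicate 1) and 53 to 94 in Leca2 (lowest without control replicate 1), with 4 to 6 member calls and 7 to 8 called differences. The replicate block, a pairing the arrays did not bear out, left 4 member calls and 6 called differences, and under it the Gcg calls for Leca4 (adjusted p 0.105), Leca4 minus Leca2 (0.0744) and Sey minus Leca4 (0.0539) were lost, as were those of Adcyap1r1 (0.0943), Pou3f2 (0.0537) and Csf1r (0.0559) in Leca4 and of Cadps2 (0.167), Elavl4 (0.229), Gap43 (0.0751) and Npnt (0.0556) in Sey. The Leca4 calls of Bcl6 (limma adjusted p 0.0874) and Pax6 (0.0646) were lost under the replicate block too. Each of 60 member results was recomputed under the settings that could give it a value, between 16 and 26 of them. Of these results 13 were called, 9 of them under every setting run for that result, and 0 called results reversed; 44 of the 47 others were never called, and 19 of these 47 changed sign under some setting. The Sey call of Chga was lost only under the 1.4-fold rule, and its adjusted p ranged from 0.000265 to 0.0165. That of Adcyap1 at 1423427_at in Sey ranged from 0.0445 with array weights to 0.356. A bound on the fold from the 20th percentile was not run, because no called member had a whole group at or below background. Signal near background limits Tac1 and the Sey mutants at Gcg. The causes of these shifts were not tested.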
